A study of Mus musculus with 12 samples.

Results

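The comparison described here sets LYVE1- macrophages of the mouse aorta against LYVE1- macrophages of mouse adipose tissue, and it covers 6 of the 12 RNA-seq libraries of the study, 3 per tissue. The members were taken from the sample labels: the libraries labelled as Lyve1- macrophages of the aorta and those labelled as Lyve1- macrophages of fat. All animals were adult C57/BL6 mice with a wild-type genotype and no labelled treatment. Aortic cells came from 30 mice, and adipose cells came from the epididymal and subcutaneous depots of 20 mice. In both tissues, live cells (negative for the dye DAPI) that carried F4/80, CD11b, MerTK, CD64 and CD45 on their surface were sorted by flow cytometry, and the fraction that did not stain for LYVE-1 was kept. The remaining 6 libraries, from the LYVE1+ fraction of the same sorts, serve as a reference. They also enter the same statistical fit and contribute to its estimate of the spread. Nothing in the labels ties a library to its own pool of mice. Each p-value therefore reflects the spread between libraries within the groups of all 12, and that spread may be technical.

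LYVE-1 is a receptor for hyaluronan that marks lymphatic endothelium and a set of long-lived macrophages that lie along blood vessels. Tissue macrophages without it typically carry more MHC class II, the molecules that present antigen to CD4 T cells, and part of them is replaced by blood monocytes. Macrophages take on genes of the organ in which they live. In the arterial wall they lie among smooth muscle cells, fibroblasts and elastic fibres, and in adipose tissue they lie among adipocytes that store and release fat.

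The 3 aorta LYVE1- libraries held 14625641, 29792301 and 16329113 counts and the 3 fat LYVE1- libraries 7727272, 10421586 and 10117721 counts, over 23704 genes with a count. The genes of the sorting gate were present in all 6 libraries. None of the 7 listed (Ptprc for CD45, Fcgr1 for CD64, Mertk, Itgam for CD11b, Adgre1 for F4/80, Csf1r and Lyve1) reached an adjusted p below 0.05 in the test used below. Lyve1 was still detected in these LYVE1- cells, at 877, 1323 and 868 CPM (counts scaled to a common library total) in the aorta and 230, 570 and 611 CPM in fat, against 1497 to 2807 CPM in the LYVE1+ libraries. It was 2.17-fold higher in the aorta without overlap (adjusted p = 0.0948 by edgeR). DESeq2 gave Lyve1 an adjusted p of 0.00543, and edgeR without both fat libraries numbered 1 gave 0.0257. Whether the share of LYVE1+ cells that passed the gate differed between the tissues was not tested. Fat library 1 stood apart. It had 12.1% of its counts in mitochondrial genes, against 2.06% to 3.2% in the other 5 libraries, and 5279 CPM of erythroid markers (hemoglobin chains and other red-cell genes), against 16.8 to 349 CPM. The summed level of 25 genes typical of resident perivascular macrophages was 16115 CPM in it and 30549 to 37365 CPM in the others. All aorta LYVE1- libraries carry the name prefix RHH and all fat LYVE1- libraries the prefix RMM, so whatever this prefix stands for cannot be told apart from the tissue within this comparison.

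A total of 353 of 14216 tested genes (2.48%) differed between aortic and adipose LYVE1- macrophages at an adjusted p below 0.05, and a gene past this threshold is called "called" below. The test was edgeR's quasi-likelihood test with Benjamini-Hochberg adjustment over all 14216 genes. Of the called genes, 236 (1.66% of all tested) were higher in the aorta and 117 (0.823%) were lower. The difference was larger than 2-fold for 166 of the higher and 46 of the lower genes. In 352 of the 353, the 3 aorta libraries did not overlap with the 3 fat libraries, as in 21.1% of all tested genes. At an unadjusted p below 0.05 there were 2155 genes (15.2%). Of the called genes 102 share exonic bases with a gene on the other strand, among them Mfap4 (with Mapk7), Eln (with Gm30003), Bhlhe41 (with Gm43909), Mylk (with E130310I04Rik) and Cxcl16 (with Zmynd15), and the library protocol keeps no strand, so reads of such pairs cannot be told apart. The plot of the genes with the largest differences shows how far the 2 groups of libraries lie apart for each of them. Log2 fold changes below are aorta over fat from this fit, with the standard error (SE), and levels are CPM scaled by edgeR's TMM factors.

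**Figure D1:**
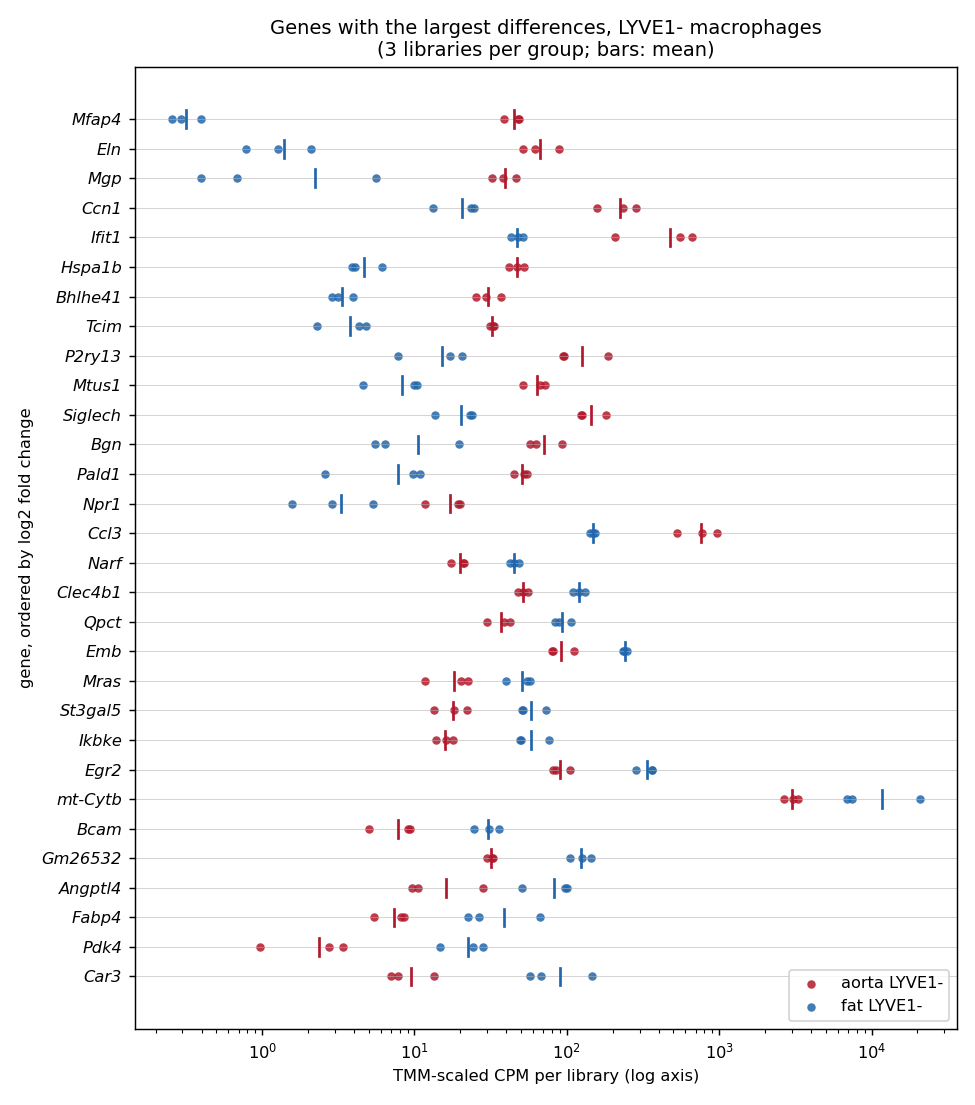
Expression of the 15 genes with the largest difference in each direction among called genes of sufficient level whose groups do not overlap, in CPM on a log axis, with 1 point per LYVE1- library (red aorta, blue fat) and a bar at each group's mean. Non-overlap was a condition of the choice, and the values run from Mfap4 (38.8 to 48.2 against 0.256 to 0.398 CPM) at the top to Car3 (7.04 to 13.4 against 57.2 to 146 CPM) at the bottom.

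The largest differences at these levels were in genes of the elastic matrix. Mfap4, a microfibril glycoprotein that binds elastin (chromosome 11, 61485431 to 61488900, GRCm38), had 38.8, 48 and 48.2 CPM in the aorta libraries and 0.256, 0.294 and 0.398 CPM in the fat libraries. Eln, elastin itself (chromosome 5, 134702593 to 134747323), had 51.2, 61.4 and 88.3 CPM in the aorta and 1.28, 0.785 and 2.09 CPM in fat. Every aorta library was thus far above every fat library for both genes. The log2 fold change was 7.09 (SE 0.62, adjusted p = 6.48e-05) for Mfap4 and 5.58 (SE 0.41, adjusted p = 3.55e-05) for Eln. Mgp, which encodes matrix Gla protein, an inhibitor of arterial calcification, was 18.3-fold higher, with 38.1, 32.4 and 46.5 CPM against 5.63, 0.687 and 0.398 CPM, the highest fat value being that of library 1. Bgn, the proteoglycan biglycan, was 6.83-fold higher and Fbln5, the elastic fibre protein fibulin-5, 3.81-fold higher. These are the 5 called of 12 tested genes of the elastic fibre list, all of them higher, and the list's median log2 fold change was 2.09 against -0.00408 over all tested genes. The call of Bgn was lost when any single library other than fat library 1 was left out (adjusted p up to 0.153), and that of Fbln5 without fat library 2 (0.0608). Without both fat libraries numbered 1 the log2 fold changes of Mgp and Bgn were 6.14 and 3.57 in place of 4.19 and 2.77.

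Of 11 tested smooth muscle genes 5 were called, all higher in the aorta, and of 11 tested endothelium genes none was called by edgeR (1 lower without both fat libraries numbered 1). Mylk, the kinase that phosphorylates myosin light chain, had 32, 18.1 and 28.2 CPM against 9.85, 5.59 and 8.96 CPM (3.21-fold, adjusted p = 0.00705). Acta2, smooth muscle actin, had 35.2, 13.9 and 49.4 CPM against 2.43, 0 and 0.498 CPM, and Myl9, a myosin regulatory light chain, 14.1, 9.7 and 20.2 CPM against 2.05, 1.08 and 3.29 CPM. Both were above every fat library in every aorta library. Cnn1, the actin-binding protein calponin, had 188 counts over the aorta libraries and 1 count over the fat libraries. The fifth, Tagln (transgelin), falls outside the naming rule and was 3.3-fold higher. The calls of Acta2, Myl9, Cnn1 and Tagln were not stable: Acta2 and Cnn1 lost theirs without aorta library 1 or 3 or fat library 2 or 3 (adjusted p up to 0.124 and 0.133), Myl9 without any library but aorta library 2 (up to 0.106), and Tagln without any of the 6 (up to 0.157). The log2 fold change of Acta2 was 7 without both fat libraries numbered 1 and 3.97 with library prefix as a term in the fit, in place of 5.16, and that of Myl9 was 1.77 with the prefix term in place of 2.77. Of 12 fibroblast genes, Col1a1 and Col1a2, the chains of type I collagen, were called higher at 3.81-fold and 3.63-fold, and none was called lower. Over this list 10 fold changes were positive and 2 negative. Col1a1 lost its call without aorta library 2 or fat library 2 or 3 (up to 0.094), and Col1a2 without aorta library 2 or 3 or fat library 2 or 3 (up to 0.125).

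Summed over whole marker lists, smooth muscle genes stood at 64.4 to 147 CPM in the aorta libraries and 19.4 to 28.6 CPM in fat, and elastic fibre genes at 301 to 453 against 83.4 to 113 CPM, with no overlap in either. Fibroblast genes overlapped, at 1809 to 2818 against 991 to 1979 CPM, and so did endothelium genes, at 116 to 149 against 118 to 154 CPM. Adipocyte genes ran the other way, from 56.1 to 67 CPM in aorta libraries against 78.3 to 154 CPM, and mesothelium genes likewise at 0.47 to 1.16 and 6.03 to 16.7 CPM, both without overlap. Mast cell genes were at 48.7 to 86.5 against 10.6 to 19.3 CPM. None of 7 tested genes was called by edgeR in the reported fit, although 5 did not overlap (21.1% of all tested genes did not). Without both fat libraries numbered 1, 2 were called higher. In an edgeR fit of the 6 LYVE1- libraries alone Cpa3 and Tpsb2 of this list were called higher (adjusted p = 0.0234 and 0.0262). Prg2, an eosinophil granule protein, had 14.6, 8.82 and 5.83 CPM in the aorta and 0, 0 and 0.0996 CPM in fat (574 counts against 1). Prox1, a transcription factor of lymphatic endothelium, had 2.27, 4.51 and 2.19 against 0, 0.0981 and 0 CPM (203 counts against 1). Both were called higher (adjusted p = 0.0129 and 0.0127 by edgeR). Prg2 lost its call without aorta library 1 or fat library 2 or 3 (up to 0.0645), and Prox1 without fat library 3 (0.0694). The summed eosinophil list overlapped at 14.3 to 41.6 and 22.2 to 42.1 CPM. Without overlap were the sums of lymphatic endothelium (9.61 to 18.9 against 1.63 to 7.64 CPM), neutrophils (62.2 to 79.9 against 33.1 to 46.8 CPM) and B cells (771 to 1010 against 686 to 719 CPM). Most of the neutrophil sum came from Csf3r, described below, and most of the B cell sum from Ighm, an immunoglobulin heavy chain. Ighm had 566, 700 and 945 against 400, 644 and 642 CPM and was not called by edgeR (adjusted p = 0.463). None of the 10 tested B cell genes was without overlap, and 5 fold changes were positive and 5 negative. The plot of marker sums shows that the elastic fibre, smooth muscle, adipocyte and mesothelium sums did not overlap between the tissues in the LYVE1+ libraries either (elastic fibre 174 to 439 against 98.6 to 122 CPM). In bulk libraries fewer cells of a type and less RNA per cell cannot be told apart, and the part of RNA from other cells in the matrix and adipocyte genes was not tested.

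**Figure D2:**
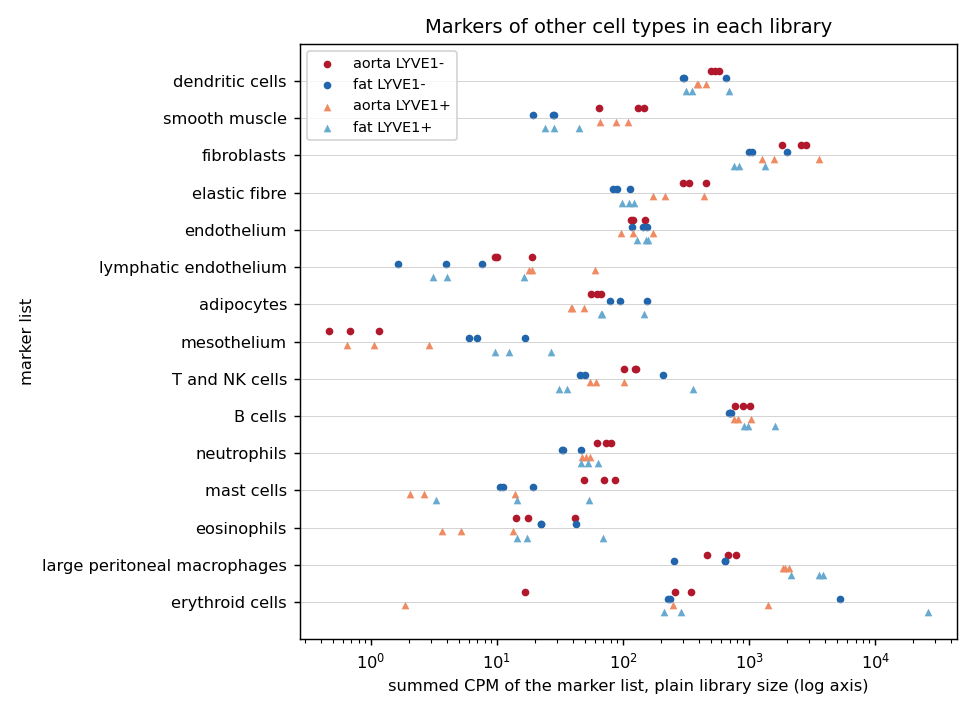
Summed CPM of each list of marker genes for other cell types, on a log axis, with 1 point per library (circles LYVE1-, triangles LYVE1+, reds aorta, blues fat). Smooth muscle, elastic fibre, adipocyte, mesothelium, mast cell, lymphatic endothelium, neutrophil and B cell sums of the LYVE1- libraries separate by tissue without overlap. The neutrophil sum is mostly Csf3r and the B cell sum mostly Ighm. The erythroid sum of fat library 1 (5279 CPM for LYVE1-) lies far from the other LYVE1- libraries.

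Several genes for surface receptors, taken from the largest differences and from several marker lists, were higher in aortic LYVE1- macrophages. Siglech, a sialic acid-binding lectin known from microglia and plasmacytoid dendritic cells (chromosome 7, 55768178 to 55778925), had 125, 124 and 180 CPM in the aorta and 13.7, 24 and 23.2 CPM in fat. The groups did not overlap, and the difference was 7.01-fold (SE of the log2 value 0.21, adjusted p = 3.55e-05). P2ry13, a receptor for ADP that is also abundant in microglia (chromosome 3, 59207892 to 59210882), had 94.4, 95.5 and 187 CPM against 7.81, 20.4 and 17.1 CPM (8.25-fold, adjusted p = 0.00162). Cd4, a T cell co-receptor that some tissue macrophages also carry, had 59.7, 61.3 and 83.7 CPM against 27.4, 20.8 and 16.7 CPM (3.16-fold, adjusted p = 0.0021). Cd4 was the only one of 15 T and NK cell markers called, and Trac, the T cell receptor chain, stood at 0.0607 to 0.936 CPM in the aorta. The summed T and NK cell markers stood at 102 to 127 CPM in the aorta and at 206, 45.2 and 50.4 CPM in fat. The median log2 fold change of that list was -0.58, and 1.48 without both fat libraries numbered 1. What part of the Cd4 difference came from T cells was not tested. Of the 15 dendritic cell markers Siglech alone was called, and Flt3 and Xcr1 were at or below 16.6 CPM in all 6 libraries. Without both fat libraries numbered 1, 2 of the 15 were called higher, and the list median was 1.03 in place of 0.07. Csf3r, the receptor for G-CSF, had 74.2, 62.2 and 65.7 CPM against 35.3, 31.4 and 30.7 CPM (2.08-fold, adjusted p = 0.00192), with Elane, Ly6g and S100a9 of the neutrophil list without a count in any of the 6 libraries. Npr1, the receptor for atrial natriuretic peptide, was 5.31-fold higher, at 11.8, 19.3 and 19.9 CPM against 5.37, 1.57 and 2.89 CPM. LYVE1+ libraries held more Npr1, with 68.7, 48.3 and 69.7 (aorta) against 45.7, 74.9 and 52.2 CPM (fat). What part of the Npr1 difference came from LYVE1+ cells that passed the gate was not tested. The calls of Siglech, P2ry13, Cd4, Csf3r and Npr1 all held in each of the 6 fits that left out 1 library, and with prefix as a term the log2 fold change of P2ry13 was 3.77 in place of 3.04.

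Among 36 tested transcription factors of macrophages 6 were called, and all were higher in the aorta (12 higher without both fat libraries numbered 1). Bhlhe41, a basic helix-loop-helix repressor known from microglia and alveolar macrophages (chromosome 6, 145858243 to 145865558), had 36.7, 25.4 and 29.3 CPM in the aorta libraries and between 2.89 and 3.97 CPM in the fat libraries. The log2 fold change was 3.20 (SE 0.26, adjusted p = 6e-05), and the lowest aorta library lay well above the highest fat library. Its relative Bhlhe40 had 109, 53.2 and 97.1 CPM against 165, 71.1 and 59.4 CPM and was not called. Id2, which binds such factors and keeps them off DNA, had 514, 428 and 514 CPM against 201, 130 and 135 CPM (3.12-fold, adjusted p = 0.00363). Spic, a factor of iron-recycling macrophages, was 2.01-fold higher, and Runx1, a factor of blood cell development, 1.72-fold higher. Mef2c (1.62-fold) and Tfec (1.79-fold), which the naming rule leaves out, complete the 6. Spic lost its call without aorta library 3 or fat library 3 (adjusted p up to 0.0803), Runx1 without fat library 3 (0.0645; its log2 fold change was 0.51 with the prefix term, in place of 0.78), Mef2c without any of the 6 libraries (up to 0.157) and Tfec without any but fat library 1 (up to 0.0959). The general macrophage factors Spi1 (390, 411 and 470 against 329, 338 and 305 CPM) and Irf8 (192, 196 and 270 against 217, 229 and 177 CPM) were not called.

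Heat shock proteins, the chaperones that cells make when proteins unfold, differed in some members. Of 19 tested, 5 were called, all higher in the aorta, and the median of the list was 0.04 (7 called and 0.08 without both fat libraries numbered 1). Hspa1b, an inducible HSP70 (chromosome 17, 34956436 to 34959238), had 41.7, 52.5 and 47.4 CPM in the aorta and 4.09, 6.08 and 3.88 CPM in fat (log2 fold change 3.32, SE 0.23, adjusted p = 3.27e-05). Its near-identical neighbour Hspa1a, named here as the fifth called gene outside the naming rule, had 1145, 1726 and 1958 CPM against 142, 437 and 432 CPM (4.77-fold). Reads of these 2 copies cannot be assigned with certainty. Hspb1, a small heat shock protein, had 14.4, 16.4 and 18.2 CPM against 4.22, 2.75 and 2.99 CPM (4.94-fold, adjusted p = 0.002). Hsph1, an HSP110 that helps HSP70 release its substrate, had 100, 108 and 112 CPM against 58.9, 50.1 and 59.8 CPM. Hsp90aa1, the inducible HSP90, had 408, 405 and 418 CPM against 249, 217 and 217 CPM. Hsph1 and Hsp90aa1 thus differed by less (1.9-fold and 1.8-fold) but as evenly between libraries. The constitutive Hspa8 (1611, 2127 and 1600 against 1427, 2006 and 2085 CPM) and Hspa5 of the endoplasmic reticulum (1509, 1767 and 1189 against 1314, 1920 and 1994 CPM) overlapped. Hspa1a lost its call without aorta library 2 or 3 or fat library 2 or 3 (adjusted p up to 0.0709), and the other 4 kept theirs in every fit that left out 1 library.

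The 250 bases before the start of 4 of the 5 called genes, those with a window in the promoter table, are shown because each of the 4 holds a core heat shock element, the inverted GAA repeat that heat shock factor binds (GAANNTTC or TTCNNGAA, both strands covered by these 2 spellings). Matches are in capitals, and sequences are RefSeq windows on GRCm38.p6, read 5′ to 3′ on the gene's strand.
Hspa1b (chr17:34959239-34959488, minus strand): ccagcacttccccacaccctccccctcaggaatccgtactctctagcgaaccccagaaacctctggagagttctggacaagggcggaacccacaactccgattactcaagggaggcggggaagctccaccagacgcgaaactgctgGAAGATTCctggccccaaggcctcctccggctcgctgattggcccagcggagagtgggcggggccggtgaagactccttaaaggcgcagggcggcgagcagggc
Hspa1a (chr17:34972157-34972406, minus strand): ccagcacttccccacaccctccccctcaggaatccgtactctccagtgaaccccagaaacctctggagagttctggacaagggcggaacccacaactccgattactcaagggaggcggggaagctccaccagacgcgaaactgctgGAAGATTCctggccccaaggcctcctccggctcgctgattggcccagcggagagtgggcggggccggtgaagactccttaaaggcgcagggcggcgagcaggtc
Hspb1 (chr5:135887669-135887918, plus strand): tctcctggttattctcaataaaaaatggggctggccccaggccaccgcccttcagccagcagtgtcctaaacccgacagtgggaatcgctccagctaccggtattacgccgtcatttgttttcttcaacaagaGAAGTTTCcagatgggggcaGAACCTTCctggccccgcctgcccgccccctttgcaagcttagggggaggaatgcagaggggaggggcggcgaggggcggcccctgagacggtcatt
Hsph1 (chr5:149636337-149636586, minus strand): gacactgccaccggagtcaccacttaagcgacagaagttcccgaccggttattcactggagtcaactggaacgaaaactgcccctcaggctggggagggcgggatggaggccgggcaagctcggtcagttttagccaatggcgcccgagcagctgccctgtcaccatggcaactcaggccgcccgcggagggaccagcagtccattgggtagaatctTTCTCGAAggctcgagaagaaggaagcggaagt
In Hspa1a and Hspa1b the match began 104 bases before the start, and their windows were identical at 247 of 250 bases. Hspb1 held 2 matches, 117 and 97 bases before the start, and Hsph1 held 1 at 33 bases. The element was found in 4 of 11 other tested heat shock genes with a window (Hspd1, Hspe1, Dnaja1 and Dnajb4, none of them called) and in 12.8% of all 32851 promoter windows. Hsp90aa1 was not searched. A match describes the letters in this window and does not show that a factor binds there.

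Genes induced by type I interferon, the antiviral cytokine, differed in a few members only. Of 29 tested, 3 were called and higher in the aorta, and the list median was 0.28 (0.11 without both fat libraries numbered 1). Ifit1, which binds foreign RNA caps (chromosome 19, 34640871 to 34650009), had 663, 554 and 206 CPM in the aorta and 47.7, 42.7 and 51.3 CPM in fat (10-fold, SE of the log2 value 0.56, adjusted p = 0.0088). Oasl1 had 663, 641 and 242 CPM against 136, 94.1 and 113 CPM (4.51-fold, adjusted p = 0.0446), and Oas2, a sensor of double-stranded RNA, was 1.48-fold higher. In both Ifit1 and Oasl1 aorta library 3 was the lowest of the 3 aorta libraries, though above every fat library. Most members were not called, such as Irf7 with 61.1, 87.9 and 77.4 CPM against 78.8, 117 and 101 CPM. Ifit1 lost its call without fat library 3 (adjusted p = 0.0539), Oasl1 without any library but aorta library 3 (up to 0.17), and Oas2 without any but fat library 1 (up to 0.171). With library prefix as a term in the fit, the log2 fold change of Oasl1 fell to 0.50 from 2.17 that of Ifit1 to 2.10 from 3.33 and that of Oas2 to 0.25 from 0.56.

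The promoter of Ifit1 is shown for its interferon-stimulated response elements, searched as GAAANNGAAA on both strands and given in capitals (RefSeq, GRCm38.p6). Both matches lie on the opposite strand, so the capitals read as the reverse complement.
Ifit1 (chr19:34640639-34640888, plus strand): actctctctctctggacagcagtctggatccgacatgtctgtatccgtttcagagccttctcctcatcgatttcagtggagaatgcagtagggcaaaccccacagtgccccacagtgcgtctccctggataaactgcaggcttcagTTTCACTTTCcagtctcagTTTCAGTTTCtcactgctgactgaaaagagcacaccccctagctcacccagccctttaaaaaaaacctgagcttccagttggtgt
The 2 matches began 104 and 85 bases before the start. The element was in 10 of 18 other tested interferon genes with a window, was not in the window of Oasl1, and was in 2.98% of all promoter windows. Most interferon genes that hold it, such as Stat2 (130, 123 and 104 against 72.3, 94 and 88.5 CPM), were not called.

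Chemokines that attract monocytes and T cells were among the higher genes. Ccl3, a chemokine that activated macrophages secrete, had 968, 770 and 528 CPM in the aorta and 153, 141 and 149 CPM in fat (5.12-fold, adjusted p = 0.0042). Its neighbour Ccl4, a related chemokine, had 3531, 2706 and 1412 CPM against 577, 545 and 605 CPM (4.43-fold, adjusted p = 0.0221). Cxcl16, a membrane-bound chemokine and scavenger receptor, had 536, 497 and 501 CPM against 257, 184 and 182 CPM (2.46-fold, adjusted p = 0.00103). Ccl6 ran the other way, with 1647, 1978 and 1358 CPM in the aorta and 2781, 3418 and 3604 CPM in fat (1.97-fold lower). These were the 4 called of 23 chemokine genes tested. Ccl2 (2013, 1512 and 1245 against 947, 1088 and 1176 CPM) and Cxcl2 (1804, 1258 and 1064 against 1643, 944 and 936 CPM) were not called. Ccl4 lost its call without aorta library 1 or 2 or fat library 2 or 3 (adjusted p up to 0.0949), and Ccl6 without any library but fat library 1 (up to 0.185). With prefix as a term the log2 fold changes of Ccl3 and Ccl4 fell to 1.25 and 0.71 from 2.36 and 2.15. Tnf, the cytokine made with Ccl3 and Ccl4 by activated macrophages, had 1040, 752 and 472 CPM against 554, 283 and 274 CPM and was not called (adjusted p = 0.353). Of the 23 genes of the TNF and NF-kB list only Birc3 and Bcl3 were called, at 1.66-fold and 2.01-fold higher, and both lost the call when most single libraries were left out (up to 0.145 and 0.179), while 6 were called higher without both fat libraries numbered 1.

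Secreted growth factors and matrix-associated signals also differed. Osm, oncostatin M, a cytokine of the interleukin-6 family (chromosome 11, 4236420 to 4241026), had 168, 192 and 189 CPM in the aorta and 54, 65.9 and 48.7 CPM in fat (3.25-fold, adjusted p = 0.000248). Bmp2, a bone morphogenetic protein, had 43.5, 39.4 and 64.8 CPM against 15, 21.4 and 17.6 CPM (2.73-fold, adjusted p = 0.00435). Pdgfa, a mitogen of mesenchymal cells, was 3.27-fold higher at 15.1 to 22.8 against 4.61 to 7.55 CPM. These were the only 3 of 22 growth factor genes called, all higher and without overlap. Igf1 (403, 456 and 527 against 302, 553 and 604 CPM) and Grn (1882, 2282 and 2330 against 1470, 2500 and 2197 CPM) overlapped. Ccn1, a matricellular protein that binds integrins (chromosome 3, 145646976 to 145649981), had 232, 285 and 157 CPM against 13.3, 24.4 and 23.4 CPM, 11-fold higher (SE of the log2 value 0.39, adjusted p = 0.000771). Plau, the protease urokinase, was 2.65-fold higher at 82.2 to 88.5 against 26.9 to 41.8 CPM, the only called gene of 24 matrix proteases and inhibitors. Pdgfa lost its call without aorta library 3 or fat library 2 or 3 (adjusted p up to 0.0645) and Plau without fat library 3 (0.0509). With prefix as a term the log2 fold change of Plau was 0.67 in place of 1.41. For matrix proteases and inhibitors 4 were called higher without both fat libraries numbered 1.

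Tcim, Mtus1 and Pald1, also among the largest differences, belong to none of the lists. Tcim, a small regulator of Wnt signalling and transcription, had 32.7, 31.5 and 33.1 CPM in the aorta and 2.3, 4.32 and 4.78 CPM in fat (8.42-fold, adjusted p = 0.000248). Mtus1, a microtubule-associated protein, had 66.2, 51.7 and 71.8 CPM against 4.61, 10.4 and 9.96 CPM (7.52-fold, adjusted p = 0.000771). Pald1, the phosphatase-like protein paladin, had 54.8, 52.6 and 45.2 CPM against 10.9, 9.72 and 2.59 CPM (6.63-fold, adjusted p = 0.00357). All were called in each of the 6 fits that left out 1 library.

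Genes that handle heme and iron were partly higher in the aorta. Fth1, the ferritin heavy chain that stores iron, had 5622, 5376 and 5355 CPM against 2342, 2662 and 2746 CPM (2.11-fold, adjusted p = 0.00675). Hmox1, the heme-degrading enzyme heme oxygenase 1, had 1597, 2073 and 2023 CPM against 623, 921 and 862 CPM (2.37-fold, adjusted p = 0.0153). In each, the lowest aorta library lay well above the highest fat library. Hpgds, the prostaglandin D synthase of hematopoietic cells, had 226, 182 and 245 CPM against 50.9, 58.9 and 66.7 CPM (3.69-fold, adjusted p = 0.00321). Slc48a1, which carries heme out of lysosomes, was 1.59-fold lower, at 105, 115 and 118 against 182, 191 and 166 CPM. With Spic, described above, these were the 5 called of 16 tested genes of the iron and heme list. Hpgds, a prostaglandin synthase, and Spic, a transcription factor, are counted as list members and do not themselves handle heme or iron. Slc40a1, the iron exporter ferroportin, had 91.1, 124 and 141 CPM against 118, 346 and 352 CPM and was not called. Hmox1 lost its call without aorta library 2 or 3 or fat library 3 (adjusted p up to 0.0694), and Slc48a1 without aorta library 1 or 2 or fat library 2 (up to 0.0668). With prefix as a term the log2 fold change of Hmox1 fell to 0.57 from 1.24.

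Of 26 genes of glycolysis and hypoxia, 2 were called higher and 1 lower in the aorta, and the median was 0.01 (4 higher, 1 lower and 0.03 without both fat libraries numbered 1). Pfkfb3, which makes the activator of phosphofructokinase, had 433, 498 and 408 CPM in the aorta and 160, 151 and 156 CPM in fat (2.87-fold, adjusted p = 0.000849). Hk2, the hexokinase that traps glucose in the cell, had 194, 128 and 126 CPM against 73.3, 32.1 and 42.8 CPM (3.03-fold, adjusted p = 0.0115). Eno1, the later glycolytic enzyme enolase, was 1.54-fold lower. Hk2 lost its call without fat library 3 (0.0675) and Eno1 without any library but fat library 1 (up to 0.137), and the log2 fold change of Eno1 was -0.40 with the prefix term in place of -0.63.

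Genes that were lower in the aorta, and so higher in adipose LYVE1- macrophages, included several of fat tissue and fat metabolism. Pdk4, the kinase that turns off glucose oxidation when fatty acids are burned (chromosome 6, 5483351 to 5496309), had 2.74, 3.39 and 0.972 CPM in the aorta and 14.6, 28.2 and 24.1 CPM in fat (9.24-fold lower, SE of the log2 value 0.41, adjusted p = 0.00154). Car3, a carbonic anhydrase abundant in adipocytes, had 7.82, 13.4 and 7.04 CPM against 146, 68 and 57.2 CPM (9.46-fold lower, adjusted p = 0.0122). Cfd, the complement protease adipsin and a product of adipocytes, had 1.07, 2.95 and 1.09 CPM against 38.8, 16.4 and 19.3 CPM (14-fold lower, adjusted p = 0.00354). In Car3 and Cfd fat library 1 was the highest of all, and the other fat libraries still lay above every aorta library. Fabp4, a fatty acid carrier of adipocytes and macrophages, had 5.42, 8.55 and 8.14 CPM against 66.7, 22.5 and 26.6 CPM. Angptl4, an inhibitor of lipoprotein lipase, had 10.6, 28.3 and 9.59 CPM against 50.4, 97.2 and 99.5 CPM. Adipoq, the adipocyte hormone adiponectin, had 0.201, 0.814 and 0.182 CPM against 10.7, 2.16 and 2.49 CPM. With Cfd it made up the 2 called of 9 tested adipocyte markers. Fabp4 and Adipoq lost their calls without any of the 6 libraries (adjusted p up to 0.16 each), Angptl4 without aorta library 1 or 3 or fat library 2 or 3 (up to 0.172), and Car3 without aorta library 1 or 3 (up to 0.0644). Without both fat libraries numbered 1 the log2 fold change of Adipoq was -2.45 in place of -3.58 and it was not called (adjusted p = 0.089), and that of Fabp4 was -1.73 in place of -2.38.

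Among lipid genes of macrophages few were called. Fabp4 was the only called gene of 22 for lipid handling, whose median was -0.35 (3 called lower and -0.15 without both fat libraries numbered 1). Lpl, lipoprotein lipase (396, 160 and 315 against 890, 583 and 556 CPM), Plin2, a lipid droplet coat protein (703, 879 and 518 against 1198, 1511 and 1537 CPM), and Abcg1, a cholesterol exporter (85.1, 47.7 and 65.7 against 142, 108 and 127 CPM), were lower in every aorta library without passing the test (adjusted p = 0.0604, 0.0979 and 0.0989). Of 18 genes of cholesterol synthesis none was called by edgeR (2 higher without both fat libraries numbered 1). Of 19 genes of lipid-associated macrophages, a state described in obese fat, Fabp4 and Apoc2 were called, both lower. Apoc2 lost its call without any of the 6 libraries (up to 0.125).

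Signalling and surface genes were also among the lower ones. Egr2, an early-response transcription factor of macrophage activation (chromosome 10, 67535475 to 67542188), had 81.5, 84.7 and 105 CPM in the aorta and 286, 360 and 364 CPM in fat (log2 fold change -1.90, SE 0.16, adjusted p = 6e-05). Ikbke, a kinase of the interferon and NF-kB pathways, had 16.2, 17.9 and 13.8 CPM against 75.9, 50.1 and 49.3 CPM (3.65-fold lower, adjusted p = 0.00142). Emb, embigin, a partner of lactate transporters, had 111, 81.6 and 80.3 CPM against 239, 249 and 233 CPM (2.64-fold lower). Both groups of libraries were narrow in these genes compared with the gap between them. St3gal5, the enzyme that makes the ganglioside GM3, was 3.29-fold lower at 13.4 to 22 against 51.1 to 72.8 CPM, and Bcam, an adhesion molecule that binds laminin, 3.93-fold lower at 4.99 to 9.35 against 24.6 to 36 CPM. Clec4b1, a C-type lectin, was 2.33-fold lower and Qpct, which forms pyroglutamate at protein ends, 2.51-fold lower. Gm26532, a non-coding RNA that overlaps the microRNA gene Mir24-2 on the same strand, had 32.4, 29.7 and 32.9 CPM against 105, 125 and 144 CPM (3.94-fold lower, adjusted p = 0.000828). Every gene of this paragraph so far kept its call when any 1 of the 6 libraries was left out. Mras, a relative of RAS, did not, although 2.77-fold lower: it lost its call without any library but fat library 1 (adjusted p up to 0.143). With prefix as a term the log2 fold change of St3gal5 was -0.57 in place of -1.72, that of Mras -2.32 in place of -1.47 and that of Gm26532 -2.75 in place of -1.98.

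Of 28 immediate early transcription factors, genes switched on within minutes of a stimulus and of tissue digestion, Egr2 and Ier2 were called, both lower. Ier2 had 392, 509 and 542 CPM in the aorta and 614, 1360 and 1316 CPM in fat and lost its call without any library but fat library 1 (adjusted p up to 0.166). Egr1 had 1224, 1295 and 1382 CPM against 1484, 3846 and 3468 CPM and was not called (adjusted p = 0.0841). Fos (4000, 4570 and 4407 against 2401, 5598 and 5191 CPM) and Jun (2713, 3675 and 3586 against 918, 2402 and 2443 CPM) were not called either, and fat library 1 held the lowest value of each. The list median was -0.03, with 12 positive and 16 negative fold changes, and without both fat libraries numbered 1 4 members were called higher and 7 lower, with a median of 0.01.

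Retnla, a secreted product of macrophages exposed to interleukin-4 (chromosome 16, 48842551 to 48844461), had 2669, 2448 and 2623 CPM in the aorta and 4843, 5671 and 6304 CPM in fat (2.17-fold lower, adjusted p = 0.00905). Il4ra, the receptor chain for interleukin-4, was 1.73-fold higher, at 520, 623 and 554 against 311, 354 and 314 CPM. The 2 genes of the alternative activation list that were called, of 17 tested, thus ran in opposite directions. Among pattern recognition genes Tlr2 was 1.93-fold higher (682, 582 and 505 against 333, 300 and 282 CPM) and Myd88, the adaptor of most Toll-like receptors, 1.6-fold lower (100, 104 and 108 against 146, 185 and 167 CPM). Of 20 costimulation and checkpoint genes, Cd274, the ligand PD-L1, was 2.42-fold higher, and Cd300lb and Cd200r1, receptors of myeloid cells, were 2.18-fold and 1.61-fold lower. Retnla lost its call without aorta library 2 or fat library 3 (adjusted p up to 0.0593), Il4ra without any of the 6 (up to 0.124), and Tlr2 without aorta library 1 or 2 or fat library 2 or 3 (up to 0.0786). Myd88, Cd274 and Cd200r1 lost theirs without any library but fat library 1 (up to 0.0863, 0.162 and 0.188), and Cd300lb without fat library 3 (0.0521). With prefix as a term the log2 fold changes of Il4ra, Tlr2 and Cd300lb were 0.28, 0.59 and -0.51 in place of 0.79, 0.95 and -1.12.

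Of 25 tested genes of resident perivascular macrophages, 3 were called, all higher in the aorta. Timd4, a receptor for phosphatidylserine on dying cells, had 127, 157 and 159 CPM against 19.3, 52.9 and 66.2 CPM (3.19-fold). Stab1, a scavenger receptor, had 1550, 1878 and 1705 CPM against 852, 1155 and 1052 CPM (1.68-fold), and Vsig4, a complement receptor, was 4.58-fold higher at 6.48 to 11.5 against 1.59 to 2.16 CPM. Timd4, Stab1 and Vsig4 were each more abundant in the LYVE1+ sort of the same tissue. LYVE1+ values of Timd4 were 250, 276 and 242 (aorta) against 119, 234 and 269 CPM (fat). For Stab1 they were 2285, 2239 and 2481 against 1669, 1728 and 1566 CPM. For Vsig4 they were 42.1, 94.1 and 46.7 against 16.7, 52.7 and 52.4 CPM. What part of these differences came from LYVE1+ cells that passed the gate was not tested. Mrc1 (3532, 3851 and 3603 against 1591, 3194 and 3075 CPM), Cd163 (2128, 2833 and 2020 against 1230, 2347 and 2280 CPM) and Folr2 (1069, 1779 and 1758 against 535, 1455 and 1396 CPM) were not called, and their lowest value was that of fat library 1. The list median was 0.33, and 0.04 without both fat libraries numbered 1, where 7 were called higher and 1 lower. Vsig4 lost its call without any of the 6 libraries (adjusted p up to 0.143), Timd4 without any but fat library 1 (up to 0.105), and Stab1 without any aorta library or fat library 3 (up to 0.116).

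None of 10 genes of MHC class II presentation was called by edgeR, although 6 of them were lower in every aorta library than in any fat library. Of all 14216 tested genes 1408 were lower without overlap in this way. The list median was -0.29 (2 were called lower without both fat libraries numbered 1). H2-Ab1, a class II chain, had 9493, 10127 and 9537 CPM in the aorta and 11563, 13033 and 13254 CPM in fat, and Cd74, the invariant chain, 16373, 20297 and 17378 against 18478, 22003 and 23063 CPM. The differences were 1.3-fold and 1.18-fold (adjusted p = 0.796 and 0.814), and H2-Ab1 was among those without overlap. These p-values use a spread shared with the LYVE1+ libraries, where H2-Ab1 had 3265, 589 and 626 CPM in fat. In a fit of the 6 LYVE1- libraries alone the SE was 0.17 in place of 0.50 for H2-Ab1 and 0.19 in place of 0.33 for Cd74. Neither was called there by edgeR (adjusted p = 0.34 and 0.626). Ciita, the regulator of class II transcription, had 127, 123 and 114 CPM against 228, 213 and 217 CPM, without overlap. It was not called in the edgeR fit of all 12 libraries (adjusted p = 0.504), which uses the same shared spread. Its value in the fit of the 6 LYVE1- libraries is not given here. Of 20 genes of monocytes and CCR2+ macrophages only S100a6, a calcium-binding protein, was called, at 60.3 to 78.2 against 119 to 147 CPM (1.9-fold lower), and it lost the call without any of the 6 libraries (up to 0.18). Ccr2, the receptor that draws monocytes into tissue, had 269, 132 and 270 CPM in the aorta and 725, 649 and 637 CPM in fat, without overlap, and missed the threshold (log2 fold change -1.58, adjusted p = 0.0783). In this list 18 of 20 members had a negative fold change, and the median was -0.79. It was -0.43 without both fat libraries numbered 1, with 3 members called lower, and the summed level of the list was 5515 CPM in fat library 1 against 2987 and 2881 CPM in the other fat libraries.

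The plot of every list shows these patterns side by side. No gene was called by edgeR among 75 of oxidative phosphorylation, 78 ribosomal proteins, 25 adhesion and integrin genes and 7 Fc receptor genes. In the oxidative phosphorylation list 66 of 75 fold changes were negative, with a median of -0.17, and 6 were called lower without both fat libraries numbered 1. The adhesion list then had 3 called higher and 1 lower, and the Fc receptor list 1 higher. Transcripts of the mitochondrial genome stood out in fat library 1: mt-Cytb, a subunit of complex III, had 3271, 3040 and 2648 CPM in the aorta and 20812, 6948 and 7439 CPM in fat (3.93-fold lower, adjusted p = 0.0398). Without both fat libraries numbered 1 its log2 fold change was -1.27 in place of -1.97 and it was called (adjusted p = 7.59e-05), and it lost the call when any aorta library, fat library 1 alone or fat library 3 was left out (up to 0.144). None of 29 Hox genes passed the filter on low counts.

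**Figure D3:**
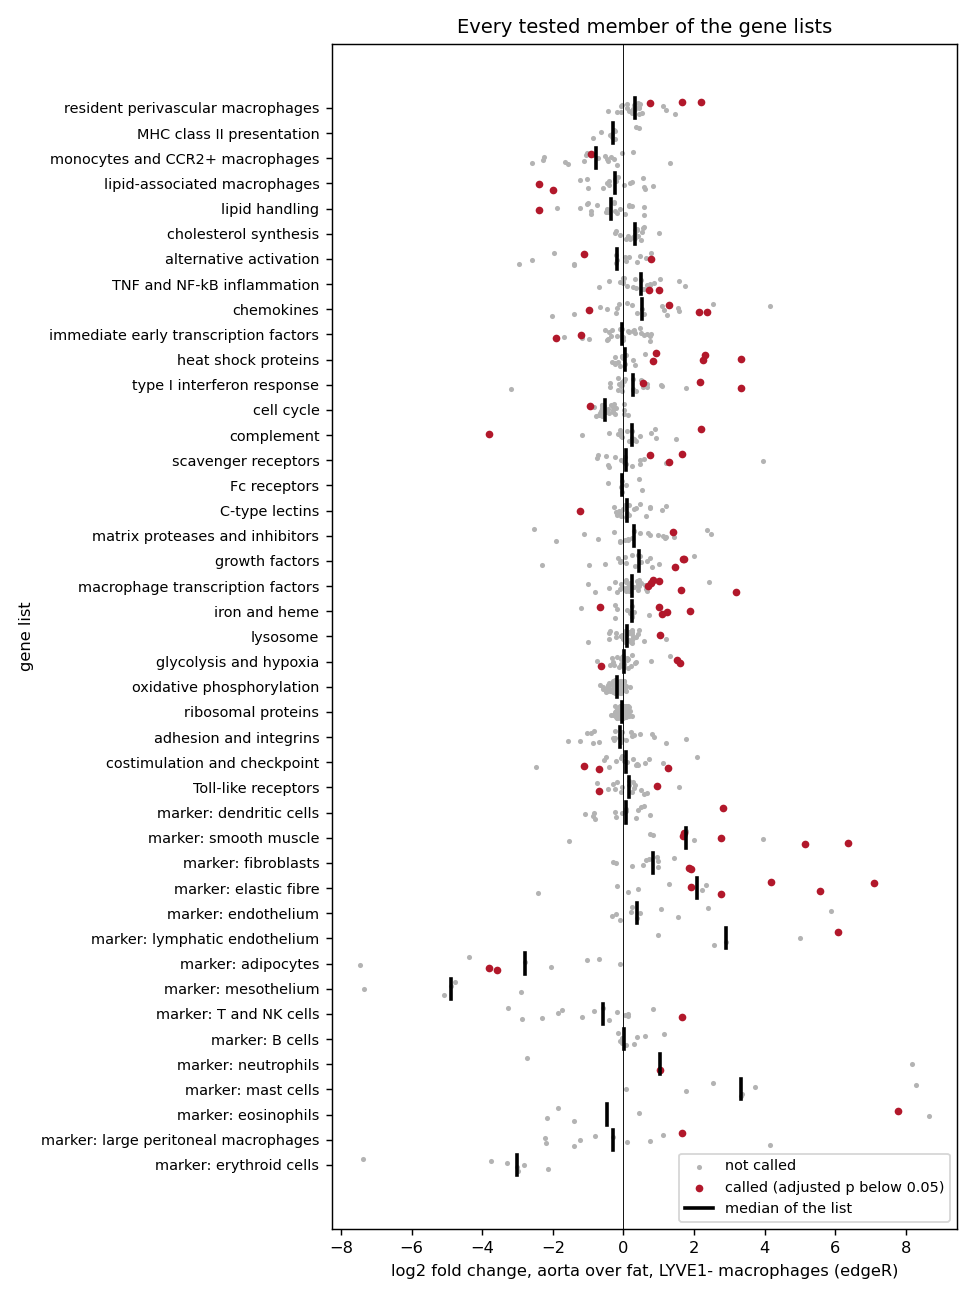
Log2 fold change (aorta over fat, LYVE1- macrophages) of each tested member of each gene list, with called members in red, the others in grey and the list's median as a black bar. Most medians lie near 0, those of the mast cell (3.34), lymphatic endothelium (2.91), elastic fibre (2.09) and smooth muscle (1.78) markers lie to the right and those of the mesothelium (-4.89), erythroid (-3.01) and adipocyte (-2.80) markers to the left (without both fat libraries numbered 1, erythroid -0.20 and adipocyte -1.63), and members far out on either side often have few counts in 1 tissue.

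The same tissue comparison in LYVE1+ macrophages, which shares no library with this one, called 426 genes (3%), 267 higher (1.88%) and 159 lower (1.12%). Of the 353 genes called in LYVE1- cells, 336 (95.2%) had the same sign in LYVE1+ cells, against 64.9% of all tested genes. A total of 156 were called in both in the same direction, 118 higher and 38 lower, which is 44.2% of the LYVE1- calls and 36.6% of the LYVE1+ calls. In the plot of both sorts Hspa1b (log2 fold change 3.32 in LYVE1- and 4.31 in LYVE1+ cells), Ifit1 (3.33 and 3.88), Egr2 (-1.90 and -2.39) and Cfd (-3.81 and -4.29) lie close to the line of equal change. Mfap4 (7.09 and 5.62) and Eln (5.58 and 3.20) lie on the same side of 0 in both. Bmp2 was called in LYVE1- cells only, with 36.6, 53.9 and 49.7 CPM in the aorta and 44.3, 47.4 and 47.9 CPM in fat among LYVE1+ libraries, but the difference between the sorts was not called (interaction adjusted p = 0.134). Npr1 (0.11 in LYVE1+ cells, interaction adjusted p = 0.134), Qpct (-0.16, 0.134) and Csf3r (0.13, 0.134) were likewise called in LYVE1- cells and not for the difference.

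**Figure D4:**
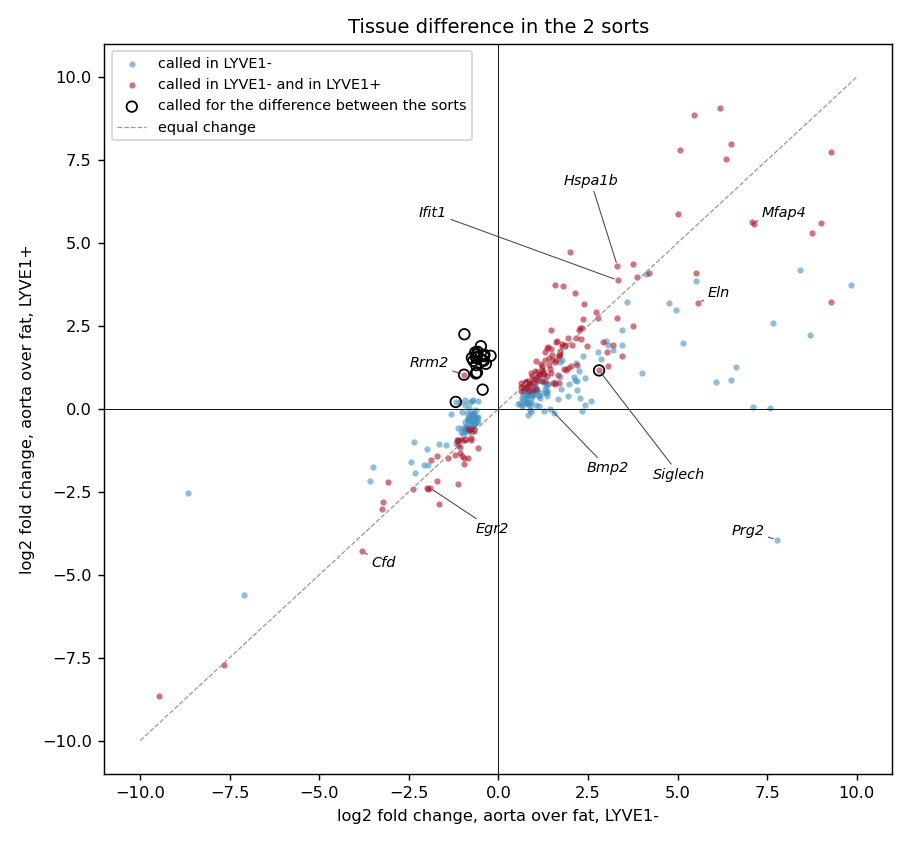
Log2 fold change of aorta over fat for each gene called in LYVE1- macrophages (or for the difference between the sorts), LYVE1- on the horizontal and LYVE1+ on the vertical axis. Red points are called in both sorts, blue points in LYVE1- only, and open circles for the difference, of which Siglech lies to the right of 0 and the others, mostly cell cycle genes, lie above the line of equal change at its centre.

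A test of the difference between the sorts (the interaction) called 22 genes (0.155%), 1 with a more positive and 21 with a more negative log2 fold change in LYVE1- than in LYVE1+ cells. The positive one was Siglech: LYVE1+ libraries had 145, 151 and 147 CPM in the aorta and 66, 69.7 and 62.3 CPM in fat, so the fat libraries were lower in the LYVE1- than in the LYVE1+ sort and the aorta libraries overlapped. Its log2 fold change was 2.81 in LYVE1- and 1.16 in LYVE1+ cells (interaction 1.65, adjusted p = 0.0466). Narf, a binding partner of the lamin A precursor, had 21.1, 20.9 and 17.4 CPM in the aorta and 44.8, 42.1 and 48.7 CPM in fat among LYVE1- libraries (2.28-fold lower), against 21.2 to 31.5 CPM in all LYVE1+ libraries (interaction -1.40, adjusted p = 0.0479). Most of the other genes act in DNA replication and mitosis. Rrm2, a subunit of ribonucleotide reductase, was the only called gene of 28 of the cell cycle list in LYVE1- cells and was lower in the aorta, at 22.1, 20.3 and 16.6 against 39.5, 35.3 and 40 CPM, whereas among LYVE1+ libraries it was higher, at 23.7, 17.7 and 15.5 against 11.5, 9.01 and 7.56 CPM. The fat LYVE1- libraries were thus the highest and the fat LYVE1+ libraries the lowest. Rrm2 lost its LYVE1- call without any of the 6 libraries (up to 0.131), and its log2 fold change was -0.55 with the prefix term in place of -0.96. The prefix also differs between the aorta sorts, with RHH in all LYVE1- libraries and in 1 LYVE1+ library. The interaction was not fitted with prefix as a term, so the part of the prefix in these 22 genes was not tested.

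In LYVE1- cells 24 of 28 had a negative log2 fold change, with a median of -0.52, and in LYVE1+ cells 18 of 28 were called higher, with a median of 1.17. Mki67, the proliferation antigen, had 91.5, 66.4 and 69.2 CPM in aorta and 79.1, 84.8 and 101 CPM in fat LYVE1- libraries, which overlap, against 73.5, 60.4 and 81.5 and 29.9, 23.7 and 17.8 CPM in LYVE1+ libraries. Top2a, the topoisomerase of dividing cells, followed the same order, with 62.2 to 78.9 and 69.5 to 102 CPM in LYVE1- and 58.9 to 80.8 and 23.6 to 31.4 CPM in LYVE1+ libraries. Without both fat libraries numbered 1, 8 of the 28 genes were called lower in aortic LYVE1- cells.

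**Figure D5:**
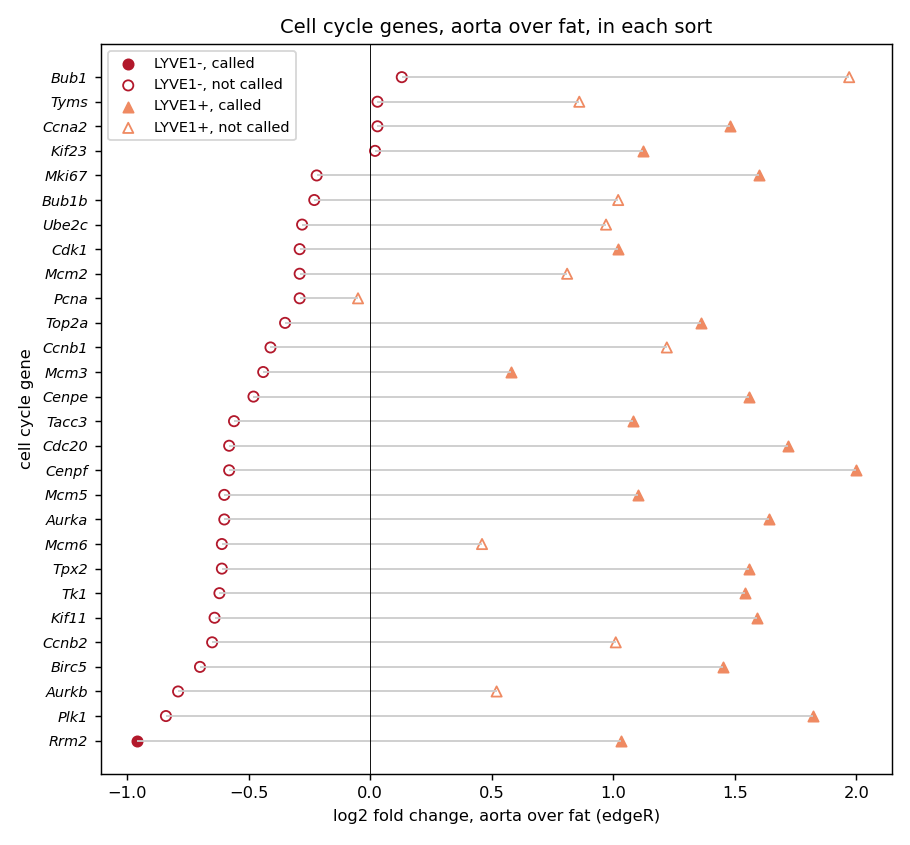
Log2 fold change of aorta over fat for each of the 28 cell cycle genes in LYVE1- (red circles) and LYVE1+ macrophages (orange triangles), filled where called, with a grey line joining each gene's pair. In LYVE1- cells 24 of 28 circles lie below 0 and 1 is filled, and in LYVE1+ cells 18 triangles are filled, all above 0.

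The number of called genes depended on single libraries. Leaving out aorta library 1, 2 or 3 gave 154, 142 and 152 called genes, leaving out fat library 2 or 3 gave 153 and 98, and leaving out fat library 1 gave 385. Of the 353 genes, 79 were called in all 6 of these fits, 62 higher and 17 lower. Leaving out both fat libraries numbered 1, which stood apart in mitochondrial and erythroid counts, gave 1024 of 14769 genes (6.93%), 611 higher (4.14%) and 413 lower (2.8%), and 345 of the 353 remained among them. Of the LYVE1+ libraries, 1 from the aorta has the prefix RHH and the others RMM, so the prefix could enter the fit as a term on the assumption that it acts alike in both sorts. All 353 genes then kept their sign, with a median ratio of the log2 fold changes of 0.933, while the standard errors grew by a median of 1.83 and 7 of the 353 remained called, among them Eln, Mfap4, Siglech, Hspa1b, Egr2 and Gm26532. In LYVE1+ libraries of the prefix RMM alone, where the prefix does not differ between the tissues, 336 of the 353 had the same sign and 83 were called in the same direction. This comparison called 176 of 14920 tested genes, and the share of all tested genes with the same sign was not computed for it. It covers LYVE1+ cells only and cannot separate prefix from tissue in the LYVE1- libraries.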

How the data were processed

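Raw read counts per gene, as deposited by the authors, were used for 12 libraries (Smart-seq2, a full-length protocol without strand, with ERCC spike-ins). The submitters' processing notes name STAR 2.5.2b, featureCounts 1.5.0 and edgeR 3.14.0. The annotation release and strand setting are not given in the sources used here. All 12 libraries, in 4 groups, entered 1 edgeR 4.0.16 quasi-likelihood fit (R 4.3.3, TMM factors, filterByExpr, 14216 genes, 8 residual degrees of freedom). SE is the absolute log2 fold change divided by the square root of F. The scripts were tested on simulated data.

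Named genes were the 15 called genes with the largest change in each direction (average log2 CPM of at least 4, no overlap), up to 4 called members of each list by adjusted p or else the 2 most abundant, the gate genes, and up to 6 interaction genes per direction. Other list members and those said to fall outside the rule were chosen after their values were seen. Members and lists were chosen with earlier results of these data known. Alternatives were DESeq2 1.42.0, other filters and factors, omitted libraries, a replicate block and library prefix as a term. Marker sums use plain library totals.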

Additional observations from a re-analysis of the deposited data

Results flagged for a closer look

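Besides Siglech (interaction 1.65), whose aorta-over-fat difference was larger in LYVE1- than in LYVE1+ macrophages, these genes differed between the sorts in the other direction by edgeR's interaction test with Benjamini-Hochberg adjustment. Cdc20, an activator of the anaphase-promoting complex, had a log2 fold change of -0.58 in LYVE1- and 1.72 in LYVE1+ cells, an interaction of -2.30 (adjusted p = 0.0206). Its level was 20.1, 21 and 16.3 CPM in aorta and 23.8, 30.6 and 31.3 CPM in fat LYVE1- libraries, and 26.3, 17.3 and 20.7 against 5.76, 5.81 and 7.86 CPM in LYVE1+ libraries. The fat LYVE1+ libraries were the lowest. Library prefix was not a term in this interaction test.

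The interaction was -2.38 for Nusap1 (adjusted p = 0.028), a protein of the mitotic spindle, and -2.17 for Tpx2 (0.0466), which activates Aurora A kinase. It was -2.16 for Tk1, thymidine kinase, -2.15 for Birc5, survivin, and -2.02 for Prc1, a protein of the spindle midzone, each with an adjusted p of 0.0206. None of these 6 genes was called in LYVE1- cells. Rrm2 had an interaction of -1.99 (adjusted p = 0.0206) and Narf one of -1.40 (0.0479), and both were called lower in aortic LYVE1- cells.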

How the results depend on the processing

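Of LYVE1- genes, 353 were called in the reported fit, 847 by DESeq2 (59.4% of them higher in the aorta, against 66.9%), 647 without a low-count filter, 1024 without both fat libraries numbered 1 (59.7% higher) and 7 with library prefix as a term. Leaving out 1 library gave 98 to 385 calls, with 67.5% to 77.5% of them higher. A fit of the 6 LYVE1- libraries alone gave 275 (74.5% higher), the stricter filter 375, upper-quartile factors 337 and removal of mitochondrial and hemoglobin genes 353. For LYVE1+ cells DESeq2 gave 922 in place of 426, omission of both fat libraries numbered 1 gave 890 and the RMM libraries alone 176. For the interaction DESeq2 gave 100 and omission of those fat libraries 84, in place of 22. The cause of these shifts was not tested, except that omitted libraries leave fewer samples. No named gene called in the reported fit changed sign under these settings, and 10 uncalled ones did under at least 1, such as Krt19 (log2 fold change -2.91, and 2.33 with the prefix term).

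With the replicate number as a block 320 genes were called. Deviations of same-numbered aorta and fat LYVE1- libraries correlated at 0.202, 0.0929 and 0.0323, so the numbers were not taken as pairs across the tissues. Same-numbered LYVE1- and LYVE1+ libraries of the same tissue were not checked in this way, and the interaction test treats them as independent. Both fat libraries numbered 1 had high mitochondrial counts (12.1% in LYVE1- and 8.85% in LYVE1+). Fat libraries were shallower than aorta libraries, which limits low genes.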
